A study of Homo sapiens with 2 samples.

Results

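Nascent strand intervals of 20-fold or higher enrichment were taken from a map of newly made DNA from U2OS cells. This is an established osteosarcoma cell line labelled wild type. The intervals are those of highest fold in the peaks of replicate 1. Whether they are also the most used sites of initiation was not tested. Of 161621 intervals with an enrichment value on chromosomes 1 to 22 and X, 1454 reached 20-fold, which is 0.9% of them. The 6 timing lists held 161869 named intervals in all. A double thymidine block arrested the cells at G1/S, and they were collected 2 hours after thymidine was removed. Both libraries, replicates 1 and 2, form 1 group, and the labels do not say whether they came from separate cultures. No undigested, unsynchronised or arrested sample was analysed here, and the labels name no transgene or further treatment. One deposited list holds the pieces of replicate 1 peaks that replicate 2 peaks share. The others hold intervals that overlap those pieces and mostly reach beyond them, sorted into 6 replication timing classes (very early, early, mid early, mid late, late and very late). The number of reads behind each interval is unknown, so no counting error can be given for an enrichment.

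Replication starts when an origin fires and short nascent strands grow outward from it, each with an RNA primer at its 5′ end. Lambda exonuclease digests DNA from the 5′ end and spares strands that carry such a primer, so that size-selected nascent strands are enriched over broken genomic DNA. Timing is a separate property of a region: gene-rich, open chromatin tends to replicate early in S phase and compact chromatin late. A list of this kind, collected early in S phase, can be set against timing classes to see where its intervals of highest fold lie.

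Members were chosen by their fold enrichment: an interval took the fold of whichever replicate 1 peak had the longest overlap with it, and was a member at 20 or more. This fold is the authors' value for replicate 1 alone. Enrichments of replicate 2 were not analysed here. Every member took its value from a different peak, so 1454 peaks stand behind 1454 members, and 15 members were overlapped by a further replicate 1 peak. The comparison intervals are those of the same timing class below 20-fold, 160167 in all. Only the test of timing class itself was not class-matched. The fold, the −log10 p, the −log10 q and the width of members come from the same peaks as the rule and are given as description, with no test.

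Most members were enriched below 30-fold, and a few stood far above that. Their median fold was 26.4, with quartiles of 22.2 and 34.6, against a median of 4.71 and quartiles of 3.78 and 6.31 below the threshold. Between 20-fold and 25-fold lay 631 members (43.4%), 519 reached 30-fold, 150 reached 50-fold, 34 reached 100-fold and 6 reached 200-fold. The median −log10 q was 89.5 among members, with a minimum of 49.6, against a median of 5.16 below the threshold. Of the intervals below the threshold, 757 (0.473%) also had a −log10 q of at least the members' minimum, with a median fold of 18.01 and a median width of 1496 bp.

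The threshold cuts a continuous range. The 3 members closest to it lay at chr2:241154581-241157698 at 20.01-fold, at chr2:232245621-232246670 at 20.02-fold, and at chr6:7315138-7315825 at 20.04-fold. The 3 intervals just outside it all had 19.99-fold. They lay at chr20:44939916-44941497, at chr6:44237554-44240202 and at chr16:51053710-51054051. All positions are in hg19. What genes or repeats lie there, and at which copy number in U2OS, was not analysed here.

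Every timing class held members, and the ranges of fold overlapped between all classes. The mid early class held 485 members, 1.01% of its intervals (exact 95% binomial interval 0.919% to 1.10%), and the mid late class 355, or 0.985% (0.886% to 1.09%). The early class also held 355 members, 0.849% (0.763% to 0.941%). Shares were 0.724% (167 members, 0.619% to 0.842%) in the very early class, 0.766% (69, 0.597% to 0.969%) in the late class and 0.66% (23, 0.419% to 0.988%) in the very late class. These intervals cover counting error only and treat neighbouring intervals as independent. Median fold among members ran from 25.7 in the early class to 29.7 in the very late class. Enrichment reached 100-fold in 10 of 167 very early members (5.99%), 5 early (1.41%), 6 mid early (1.24%), 11 mid late (3.099%), 2 late (2.90%) and none of the 23 very late members.

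**Figure D1:**
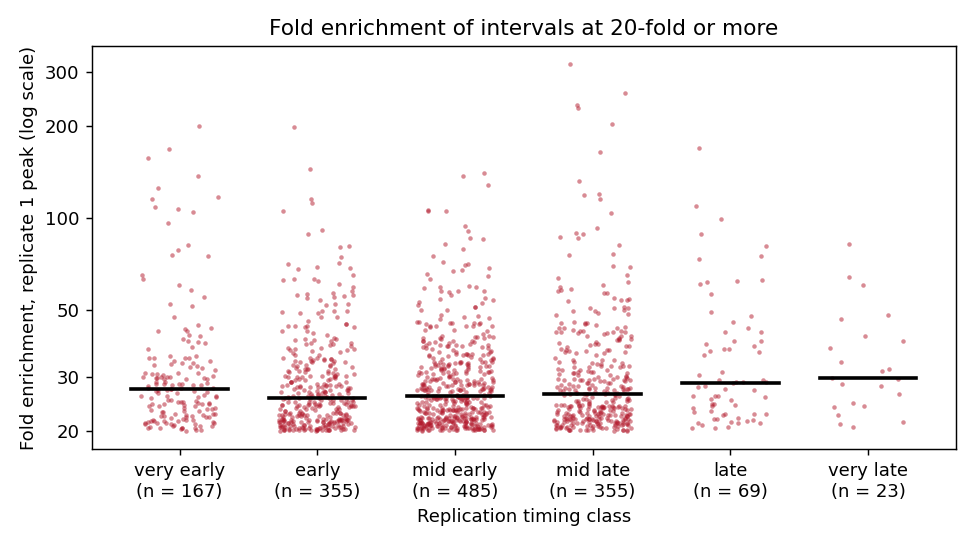
Fold enrichment of each of the 1454 intervals at 20-fold or more (points, log axis) in the 6 timing classes, with a bar at each class median. The medians lie between 25.7 and 29.7 in all classes, and the points above 200-fold belong to the very early and mid late classes.

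The share of members in the 3 earlier timing classes was lower than that of other intervals by an amount that did not pass its test. On a chromosome, 64.5 ± 14.4% of members lay in the 3 earlier classes, against 67.4 ± 10.2% of intervals below 20-fold (mean ± SD, n = 23 chromosomes). The share was lower among members on 14 of 23 chromosomes, a difference of −2.86 percentage points that did not pass a two-sided sign-flip permutation test over chromosomes (adjusted p = 0.0932; all tests below are two-sided). A chromosome is no biological replicate, so this and the tests below show only whether a difference recurs along the genome in the single intersected set. Each chromosome counted equally, whatever its number of members. Over all chromosomes together 69.3% of members and 69.98% of other intervals lay in the 3 earlier classes. With the 2 earliest classes alone the difference was −5.36 points and passed (permutation test, adjusted p = 0.0033), and without chromosome 13 the main difference was −3.40 points (permutation test, unadjusted p = 0.0455). Without the first and last 5 Mb the sign turned, at 1.07 points (permutation test, adjusted p = 0.705). With members of 15-fold or more it was −0.03 points, and with matching on width −1.80 (permutation tests, adjusted p = 0.986 and 0.256). The lowest share of members in the 3 earlier classes, 27.0%, was on chromosome 4, where 49.1% of the other intervals had these classes, and the highest was 88.2% on chromosome 19, against 81.8%.

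Members were concentrated toward the ends of chromosomes. Within 5 Mb of the first or last interval of a chromosome lay 38.3 ± 18.9% of members, against 23.5 ± 12.4% of intervals below 20-fold weighted to the same timing classes (mean ± SD, n = 23 chromosomes). The share was higher among members on 21 of 23 chromosomes, by a mean of 14.8 percentage points (sign-flip permutation test, adjusted p = 1.5e-05; the unadjusted p of 1e-05 is the smallest that the resampling can give). Chromosome 13 had the highest share of members near an end, 17 of 20 (85%), against 46.3% for the comparison intervals. Chromosomes 5 and 8 followed in the size of the difference, with 56.25% against 23.8% and 51.6% against 22.1%. The exceptions were chromosome 3, with 5.66% against 8.25%, and chromosome 22, with 35.3% against 35.4%. The difference was 10.2 points when intervals were also matched on width, and 5.89 points against intervals of 10-fold to 20-fold (permutation tests, adjusted p = 4e-05 and 0.00174). Over all chromosomes together, without class weighting, 33.6% of members (488) and 18.4% of other intervals lay within 5 Mb of an end. By fold this share was 14.9% at 3-fold to 4-fold, 26.8% at 15-fold to 20-fold, 29.95% at 20-fold to 25-fold and 43.3% at 50-fold or more. It had no step at 20-fold.

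The share of intervals that were members was highest in the outermost part of the chromosomes. It was 2.30% (exact 95% interval 1.94% to 2.71%) in the outermost 1 Mb, 1.88% (1.57% to 2.23%) between 1 and 2 Mb, 1.296% between 2 and 5 Mb and 0.849% between 5 and 10 Mb. Beyond 40 Mb it was 0.636% (0.564% to 0.714%). Both ends showed it: 1.21 ± 0.87% of intervals in the first 5 Mb were members, higher than in the inner part on 17 of 23 chromosomes, and 1.54 ± 0.84% in the last 5 Mb, higher on 19 of 23. The inner part had 0.69 ± 0.33% (mean ± SD, n = 23). These shares by distance were not tested on their own. The first interval of the acrocentric chromosomes 13, 14, 15, 21 and 22 marks the start of the listed sequence and not necessarily a telomere.

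**Figure D2:**
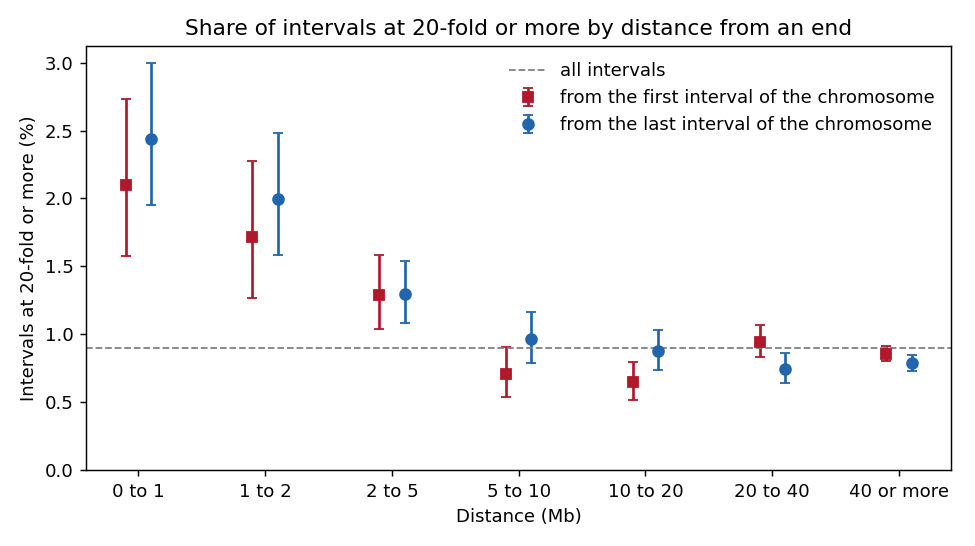
Share of intervals at 20-fold or more (percent, with exact 95% binomial intervals) by distance in Mb from the first interval (red squares) and from the last interval (blue circles) of each chromosome, over 23 chromosomes. The dashed line is the share of 0.9% among all intervals. The outermost 1 Mb had 2.098% at the first and 2.43% at the last interval.

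Each timing class had a larger share of members near the ends than elsewhere, and the ratio of the shares was larger in the later classes. In the mid late class 1.83% of intervals within 5 Mb of an end were members (185 of 10097), against 0.655% elsewhere (170 of 25938). The late class had 1.43% against 0.528%, and the very late class 1.16% (9 of 775) against 0.516% (14 of 2711). In the mid early class the shares were 1.77% against 0.820%, in the early class 1.39% against 0.770% and in the very early class 1.01% against 0.699%. The exact 95% intervals of the very early class, 0.606% to 1.57% near the ends and 0.591% to 0.820% elsewhere, overlapped, as did those of the very late class, 0.532% to 2.19% and 0.283% to 0.865%. The difference between classes was not tested.

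Members were wider than other intervals, as a description of the peaks that the rule chose. Their median width was 1136.5 bp, with quartiles of 642 and 1836 bp, against 555 bp and quartiles of 293 and 1049 bp below the threshold. Mid early members had a median of 1303 bp against 598 bp for the rest of their class, very early members 1186 against 527 bp, early members 1159 against 584 bp, late members 960 against 448 bp, mid late members 959 against 533 bp and very late members 588 against 410 bp. Members made up 0.098% of intervals under 200 bp, 0.930% of those of 500 bp to 1 kb and 2.10% of those of 2 to 5 kb. Among members themselves the fold hardly followed the width (Spearman rho = 0.013 over 1454 members, against 0.42 over all intervals with a value, as descriptions of points that come from 1 library). Width had a median of 1107 bp at 10-fold to 15-fold and 1119 bp at 20-fold to 25-fold, so that it had levelled off below the threshold.

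The widest members were only moderately enriched. The widest lay at chr16:3035414-3051751, 16338 bp at 21.9-fold, followed by chr1:110299576-110309464, 9889 bp at 21.7-fold, and chr7:5334103-5343948, 9846 bp at 21.8-fold. Of the 32 members of 5 kb or more, the highest fold was 40.95. At the other extreme 18 members (1.24%) were under 200 bp wide, compared with 11.5% of the intervals below 20-fold, and these 18 had a median fold of 37.8. The narrowest were 2 intervals of 111 bp, at chr1:5892308-5892418 at 53.7-fold and at chr21:34949903-34950013 at 117-fold, then 126 bp at chr16:3899374-3899499 at 168-fold. Of the 34 members of 100-fold or more, 5 (14.7%) were under 250 bp, and of the 1420 members below 100-fold 25 (1.76%) were.

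Pieces shared by peaks of both libraries covered more of a member than of other intervals. Every interval with a value overlaps a peak of replicate 2, since the list holds only shared pieces, but the enrichment that set the threshold is that of replicate 1. Peaks of both libraries covered a median of 79.8 ± 4.45% of the bases of a member on a chromosome, against 59.7 ± 1.55% in class-matched intervals below 20-fold (mean ± SD, n = 23 chromosomes). The share was higher among members on 23 of 23 chromosomes, by 20.02 percentage points (sign-flip permutation test, adjusted p = 1.5e-05). The members' chromosome medians ran from 65.9% on chromosome 13 to 86.99% on chromosome 15, above every comparison median, which ran from 57.04% to 63.3%. This share also depends on how far the peak of replicate 1 and the interval extend, and the difference was 23.6 points when intervals were matched on width. At least 90% of the bases were shared in 398 members (27.4%), compared with 9.93% of the intervals below 20-fold, and under 50% in 156 members (10.7%), compared with 37.5%.

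**Figure D3:**
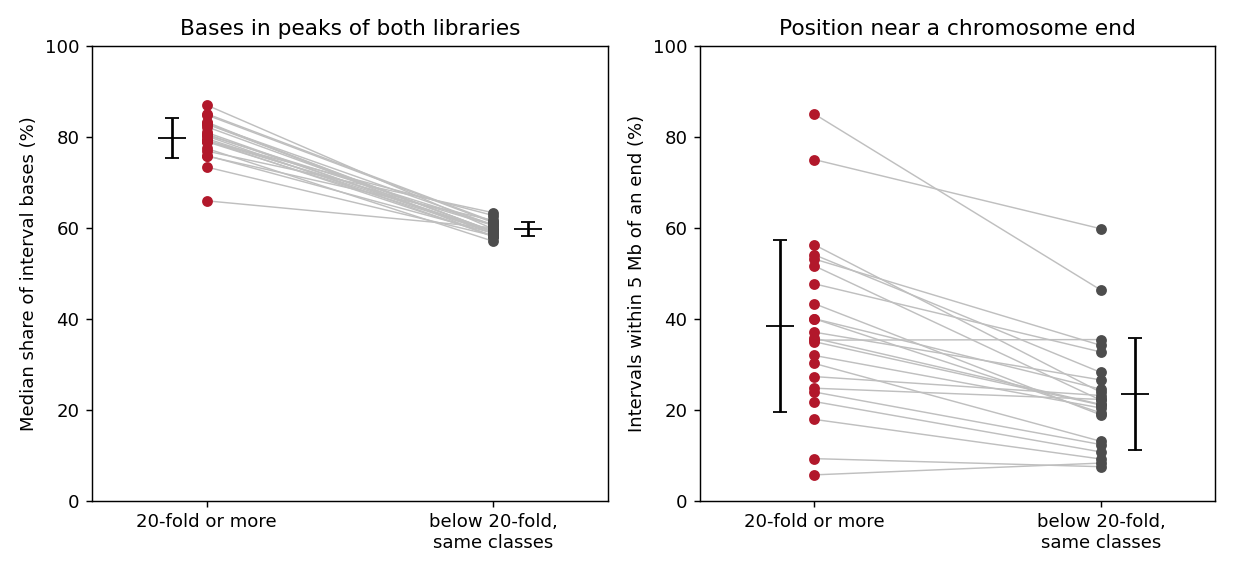
Values of 23 chromosomes (points, joined by lines) for intervals at 20-fold or more and for class-matched intervals below 20-fold, with mean and SD beside them. On the left, the median percent of interval bases in peaks of both libraries is higher for the 20-fold intervals on all 23 chromosomes. On the right, the percent of intervals within 5 Mb of a chromosome end is higher on 21 of 23.

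The overlap of the libraries was higher in bins of higher enrichment, with no step at 20-fold. Its median was 49.9% at 3-fold to 4-fold, 70.3% at 7-fold to 10-fold, 78.1% at 15-fold to 20-fold, 77.4% at 20-fold to 25-fold and 83.3% at 50-fold or more. Against intervals of 10-fold to 20-fold in the same classes, members had 3.98 points more, higher on 20 of 23 chromosomes (sign-flip permutation test, adjusted p = 0.00488). The high overlap held in all 6 classes, from a median of 78.9% among early members, against 60.1% in the rest of that class, to 85.5% among the 23 very late members, against 58.01%.

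**Figure D4:**
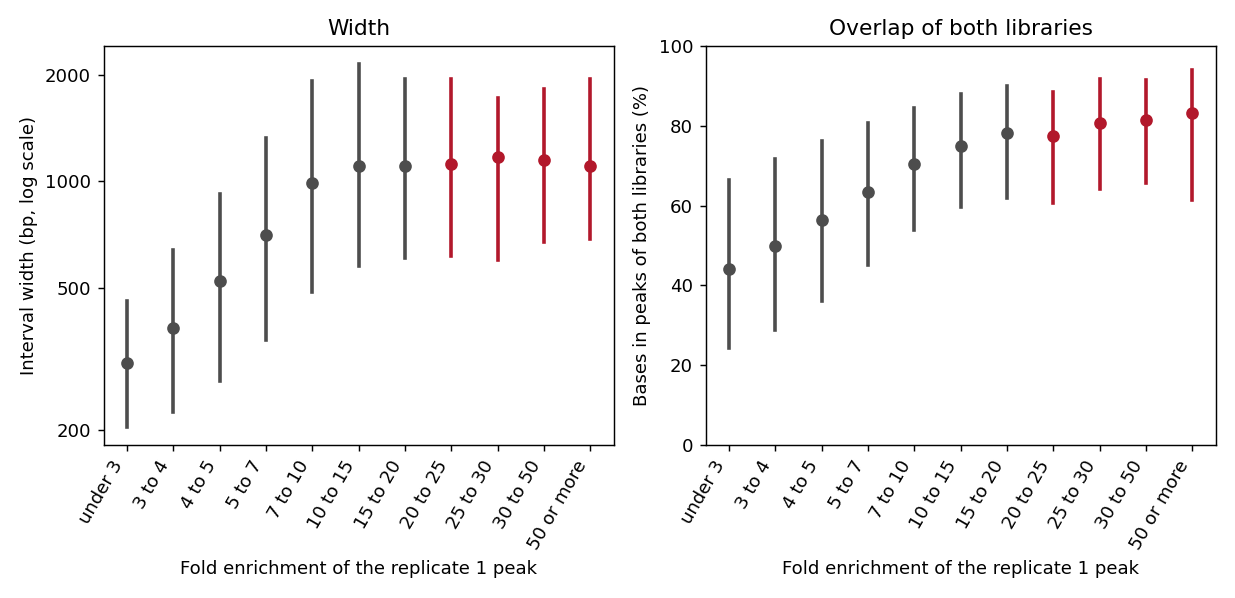
Median (point) and quartiles (line) of interval width in bp (left, log axis) and of the percent of bases in peaks of both libraries (right), by fold enrichment, with the bins of 20-fold or more in red. The median width is 308 bp in the lowest bin and 1107 bp at 10-fold to 15-fold, and it changes little above that. The overlap of the libraries is 44% in the lowest bin and 83.3% in the highest.

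Members held several shared pieces more often than other intervals, but less often than intervals of their own width. On a chromosome 19.04 ± 6.69% of members had 2 or more shared pieces, against 14.98 ± 3.40% of class-matched intervals below 20-fold (mean ± SD, n = 23 chromosomes), higher on 19 of 23 (sign-flip permutation test, adjusted p = 0.00179). Matched on width as well, the direction turned, with a mean difference of −10.8 percentage points and a lower share among members on 22 of 23 chromosomes (permutation test, adjusted p = 3e-05). Among intervals of 1 to 2 kb, 20.4% of members held several pieces, against 36.6% of the others, and among those of 2 to 5 kb 62.8% against 79.3%. Members also held several pieces less often than intervals of 10-fold to 20-fold, with a difference of −6.28 points (permutation test, adjusted p = 8.4e-04).

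Members lay closer to their nearest neighbour than other intervals. The median distance on a chromosome was 1065 ± 338 bp for members and 1588 ± 567 bp for class-matched intervals below 20-fold (mean ± SD, n = 23 chromosomes). The distance was shorter on 21 of 23 chromosomes, with a ratio of 0.678 (log2 ratio −0.56, sign-flip permutation test, adjusted p = 1.5e-05). It no longer passed without the 5 Mb at either end of a chromosome (log2 ratio −0.27, adjusted p = 0.139) or with matching on width (−0.12, adjusted p = 0.116, permutation tests). Against intervals of 10-fold to 20-fold the sign turned, with a log2 ratio of 0.14 that did not pass (adjusted p = 0.0518) and of 0.15 that did when width was matched too (adjusted p = 0.0283, permutation tests).

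Replicate 1 peaks around a member were more often kept in the intersection with replicate 2. Of the 10 peak numbers on either side of a member's own, a median of 76.7 ± 4.49% on a chromosome were in the shared list, against 72.6 ± 4.74% around class-matched intervals below 20-fold (mean ± SD, n = 23 chromosomes). The medians were higher for members on 17 chromosomes and equal on the others, by a mean of 4.13 percentage points (sign-flip permutation test, adjusted p = 1.5e-05). On most chromosomes they differed by 0 or 5 points. Over all chromosomes together the median was 75% both for members and for intervals below 20-fold. Without the first and last 5 Mb the difference was 1.20 points and did not pass (adjusted p = 0.364), nor did it pass against intervals of 10-fold to 20-fold (0.87 points, adjusted p = 0.273, permutation tests).

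Intervals beside a member had a median fold slightly above that beside other intervals. That most of them lie below the member itself follows from the rule. The intervals directly beside a member had a median fold of 5.20, compared with 4.74 beside class-matched intervals below 20-fold, and 1.44% of them were members themselves, compared with 0.909%. The fifth neighbour on either side had a median of 5.13, against 4.74. These values use the same measure as the rule and were not tested. Of 1453 members with a value on both sides, 339 (23.3%) had both neighbours under 5-fold and 302 (20.8%) had a neighbour of 10-fold or more. The same shares were not counted for intervals below 20-fold, so they do not show whether members differ from other intervals in this. The interval with the highest fold of all, the mid late one at chr11:76403529-76404655 with 319-fold, was flanked by intervals of 5.14-fold and 3.66-fold. Its −log10 q was 2068, its width 1127 bp, and peaks of both libraries covered 96.6% of it.

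The 6 members of highest fold in each class differed in width and in how much of them both libraries shared. Of these 36, 20 were under 1 kb wide and 17 had at least 90% of their bases in peaks of both libraries. All 6 of the very late class and 5 of the very early class were under 1 kb, against none of the early class, whose leaders ran from 1164 to 4555 bp. At least 90% was shared in 4 very early, 1 early, 1 mid early, 4 mid late, 4 late and 3 very late leaders. These 36 were ranked by the value that the rule used, so the counts are a description.

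Several very early leaders were very narrow. The first, at chr10:99438625-99438769, had 200.02-fold over 145 bp. The second was the interval of 126 bp on chromosome 16 given above, and the third lay at chr13:110076471-110076690 with 157-fold over 220 bp. Each of these 3 had at least 92.4% of its bases shared. The fourth, at chr2:24299050-24300748, had 137-fold over 1699 bp with 64.3% shared. At chr14:62358704-62359485 the fold was 125, with neighbours of 4.31-fold and 3.80-fold at least 26637 bp away. The sixth was the interval of 111 bp on chromosome 21, which had no other interval within 64265 bp.

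The mid late class held the members of highest fold. After the leader on chromosome 11 came a second interval of that chromosome, at chr11:6677187-6678021, with 256-fold over 835 bp and 96.4% shared. The third, at chr18:77671028-77673349, had 234-fold over 2322 bp with 52.3% shared, 0.344 Mb from the last interval. At chr2:3698887-3699039 the fold was 229 over only 153 bp, of which 98.04% was shared. Next came chr7:4756543-4757315 at 202-fold over 773 bp, and chr7:158898873-158899971 at 165-fold, which lay 0.184 Mb from the last interval and had a neighbour of 13.8-fold.

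The early leaders were all wider than 1 kb, and the mid early ones were mixed. The early interval of highest fold, at chr16:29319950-29321945, had 198-fold over 1996 bp with 38.3% shared. It was followed by chr20:62465674-62469444 at 144-fold in 3 pieces and by chr1:12030586-12031790 at 115-fold. The fourth, at chr2:242509293-242512044, had 112-fold over 2752 bp with 99.2% shared. Next in fold came chr20:1206067-1207230 at 105-fold with 54.7% shared, then chr1:228400344-228404898 at 91.1-fold over 4555 bp in 3 pieces. Both mid early intervals of highest fold were narrower and largely shared: chr2:25054486-25055067 had 140.4-fold over 582 bp with 95.2% shared, and chr2:11776690-11777420 had 137-fold over 731 bp with 89.9% shared. The other 4 mid early leaders were wider and less shared. They were chr1:31124036-31125445 at 128-fold with 44.04%, chr11:70243454-70245812 at 106-fold with 46.7%, chr20:61623827-61625191 at 105-fold with 68.6%, and chr16:84636701-84639203 at 104.9-fold with 52.4%.

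The 6 late leaders ran from 74.7-fold to 169.8-fold, and the 6 very late ones from 40.9-fold to 82.01-fold. The late interval of highest fold, at chr16:23419304-23419836, had 169.8-fold over 533 bp with 91.7% shared, above every mid early member. It was followed by chr1:175068406-175068890 at 109-fold over 485 bp and chr20:23617928-23619487 at 99.3-fold over 1560 bp. The others were chr22:48491579-48493479 at 88.3-fold, chr22:49432608-49433554 at 80.9-fold and chr10:44811866-44812409 at 74.7-fold. Both chromosome 22 sites were within 2.73 Mb of the last interval.

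Among very late members, the one at chr10:132541052-132541462 had 82.01-fold with 33.3% of its bases shared. The second lay at chr5:8580967-8581630 with 64.1-fold, and was 77160 bp from the nearest interval. The third lay at chr10:132001973-132002187 with 59.99-fold over 215 bp. Next came chr15:95210308-95210895 at 47.9-fold, chr12:131130580-131131084 at 46.5-fold and chr1:176521284-176521816 at 40.9-fold, each with at least 90.1% shared.

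Some members stood in sparse regions. The member farthest from any other interval was a mid late one at chr4:102266695-102269965, at 20.04-fold and 894593 bp from its nearest neighbour. The next was at chr1:215255130-215256775, at 20.7-fold and 249559 bp. A late member at chr3:35681011-35681335 had 27.8-fold and lay 239055 bp away, another at chr6:121511213-121511667 had 42.1-fold and lay 199378 bp away, and a mid late one at chr12:20704356-20705494 had 20.8-fold and lay 181794 bp away. The median distance over all members was 925.5 bp.

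Members lay in a minority of 1 Mb windows, and some lay close to other members. Windows and chains were not counted for an equal number of other intervals, so the counts do not show whether members group more than intervals do. Of 2842 windows of 1 Mb that held an interval with a value, 699 (24.6%) held a member, and the 71 windows with 5 members or more held 458 of the 1454. Joining members at most 50 kb apart gave 168 chains of 2 or more, with 386 members (26.5%). The chains with most members were at chr19:50792598-50884583, with 5 members of 20.3-fold to 35.1-fold among 16 intervals, and at chr16:1263471-1357014, with 5 members of 20.6-fold to 33.5-fold among 25 intervals. Chains of 4 lay at chr17:77664030-77722063, all of the early class, at chr18:77643811-77707960, all mid late and reaching 234-fold, and at chr19:827504-902297, which held early, mid early and mid late members and reached 75.01-fold. Both neighbours of a member had its own timing class in 1210 of 1454 cases (83.2%), compared with 79.4% for class-matched intervals below 20-fold.

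Chromosome 19, known for its high gene density, had the highest share of members. It held 178 of the 1454 members (12.2%) but 5.36% of the intervals with a value, and 2.05% of its intervals were members (exact 95% interval 1.77% to 2.37%), against 0.834% on the other chromosomes together. No other chromosome exceeded 1.14%, the share on chromosome 7 (0.922% to 1.38%), and the lowest were 0.436% on chromosome 15 (28 members) and 0.483% on chromosome X (11 members). Chromosomes 17 and 22, which are also gene-rich, had 0.846% and 1.03%. Its 4 most populated classes each exceeded the share of that class over all chromosomes, with 2.19% of very early, 1.93% of early, 2.55% of mid early and 1.43% of mid late intervals. Within 5 Mb of an end lay 24.7% of its members, against 22.3% of class-matched intervals below 20-fold. Chromosome 19 was singled out after its values were seen. Neither its difference nor any link of these shares to gene density was tested.

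**Figure D5:**
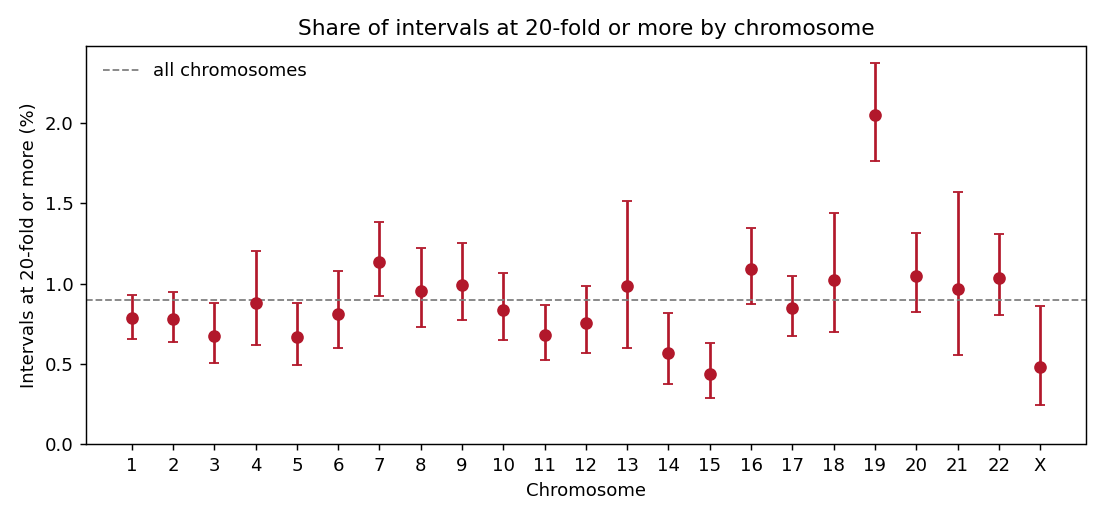
Share of intervals at 20-fold or more on each chromosome (points, percent, with exact 95% binomial intervals). The dashed line is the share of 0.9% over all chromosomes. Chromosome 19 is at 2.05%, and the other chromosomes are between 0.436% and 1.14%.

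The densest window of members also lay on chromosome 19. Between 50 and 51 Mb, 16 of 229 intervals (6.99%) were members. On chromosome 8 between 144 and 145 Mb 13 of 222 intervals (5.86%) were members, and on chromosome 7 10 of 198 (5.05%) between 157 and 158 Mb. Apart from the chromosome 19 window, these lie near the last intervals of their chromosomes. At the other end of chromosome 7, between 0 and 1 Mb, 10 of 275 intervals (3.64%) were members. Windows with 9 members included chromosome 19 between 0 and 1 Mb (of 225 intervals) and chromosome 18 between 77 and 78 Mb (of 235). The median fold of members on chromosome 19 was 25.7, compared with 26.4 over all members.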

How the data were processed

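Reads of 2 libraries were mapped with BWA to hg19 and peaks called with MACS2, per the submitters' processing notes, which give no settings. Whether MACS2 had a control library is not stated in those notes. The deposited fold enrichment (a ratio), −log10 p and −log10 q have 1 value per replicate 1 peak, and the list holds the pieces shared with replicate 2. The deposited score columns (10 times the −log10 q, and a constant in the timing lists) were not used. How the timing classes were assigned is not known here. The 149 intervals that overlapped no peak have no value and were left out.

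Each interval name was counted once. Members were compared with intervals below 20-fold of the same class on the same chromosome, weighted to the members' class numbers. For the share in the 3 earlier classes, all intervals below 20-fold on the chromosome were used, without class matching. Chromosome differences were tested with two-sided sign-flip permutation tests (100000 resamples), adjusted by Benjamini-Hochberg over 6 tests. Without the first and last 5 Mb the test of chromosome ends was not run, and the adjustment was over the other 5. The procedure was tested on simulated data. Retention assumes consecutive peak numbers. Members and tests were chosen with earlier results of these data known. Regions named are the 6 of highest fold per class, the 3 nearest the threshold on either side, the 3 widest and narrowest, the 5 most isolated and the 5 largest chains. Sequence features were not analysed here, because no hg19 genome was used. Software was Python 3.11.15 with pandas 2.3.3, numpy 2.4.6, matplotlib 3.10.9 and scipy 1.17.1.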

Additional observations from a re-analysis of the deposited data

Results flagged for a closer look

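Peaks of 20-fold or more also occurred outside the intervals compared. Among the intervals with a value the share was 0.9%, and the counts given here are not read as an excess over it. Contigs outside the main chromosomes held 8 such peaks among 895 (0.894%), with folds from 20.5 to 43.8, of which 5 were on alternative haplotype contigs of chromosome 6. On chromosomes 1 to 22 and X, 4 peaks of 20-fold or more, of 315 that overlapped no interval of the timing lists (1.27%), were in no comparison, the highest at 189-fold. Chromosome Y had none among 95 peaks, with a highest fold of 16.5, and the mitochondrial genome none among 4.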

How the results depend on the processing

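The overlap of both libraries and the position near chromosome ends kept their direction and passed the permutation test in all 12 alternatives each, from 3.98 to 23.6 and from 5.89 to 17.5 percentage points. The shorter distance, the pieces and the retention did not. Among the alternatives, keeping 1 interval per replicate 1 peak gave the same values as the main comparison, so it was no separate check. Without the first and last 5 Mb the differences were −0.27 (log2) for distance, 2.74 points for pieces and 1.20 points for retention, none past the threshold. Matching on width gave −0.12 for distance, no longer past it, and −10.8 points for pieces, in the opposite direction. Intervals of at least 200 bp gave 2.42 points for pieces (permutation test, adjusted p = 0.0532). Against intervals of 10-fold to 20-fold, chosen after the data were examined, distance turned to 0.14 and pieces to −6.28, and retention was 0.87. With width matched as well these were 0.15, −6.23 and 0.33. The share in the 3 earlier classes passed against these intervals, at −5.16 and, width-matched, −4.80 points, and with the 2 earliest classes at −5.36. Without the first and last 5 Mb that share turned to 1.07 points and did not pass. Nor did it pass with members of 15-fold or more (−0.03) or with matching on width (−1.80). The cause of these changes was not tested. Leaving out 1 chromosome at a time gave −3.40 (without chromosome 13) to −1.99 points for the earlier classes, −0.60 to −0.53 for distance, 19.7 to 20.7 for overlap, 3.67 to 4.76 for pieces, 3.86 to 4.32 for retention and 13.7 to 15.6 for ends. Members numbered 1462 with the highest fold among overlapping peaks and 1614 with every line counted. Joining members within 10 kb gave 64 chains in place of 168. The sequence alternatives were not run. No paired analysis was possible because both libraries form 1 group and enter the lists as 1 intersected set, and for the same reason no replicate could be left out. Read depth is unknown, so its limit on each fold cannot be given.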
